A study of Mus musculus with 12 samples.

Results

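The BCL2 family controls the mitochondrial route to apoptosis, and 10 of its transcripts were compared between control and cryptorchid mouse spermatogonia. The members were found by gene symbol, and all 10 were present among the 21859 genes of the table. All 10 were also among the 16932 genes tested, whose log2 of the mean RPM (reads scaled to a common library size) was above -1. They comprised 4 anti-apoptotic members (*Bcl2*, *Bcl2l1*, *Bcl2l2* and *Mcl1*) and 6 pro-apoptotic ones, namely the effectors *Bax* and *Bak1* and the BH3-only genes *Bcl2l11*, *Bid*, *Bad* and *Bbc3*.

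Family proteins share short stretches of homology called BH domains. BAX and BAK1 can form pores in the outer mitochondrial membrane, which lets cytochrome c leak into the cytosol, where it activates caspases. Anti-apoptotic members such as BCL2, BCL-xL (from *Bcl2l1*) and MCL1 hold the effectors and the BH3-only proteins in check, while the BH3-only proteins act as stress sensors that release or activate the effectors. In the testis, BAX and BCL2 family inhibitors are known for setting how many germ cells survive, and undescended testes lose germ cells by apoptosis at body temperature. Much of this control acts on the proteins, through binding, cleavage (BID), phosphorylation (BAD) and rapid turnover (MCL1), which transcript levels do not show.

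Both groups came from adult male GFRa1-EGFP mice aged 8 to 10 weeks, in which EGFP is expressed from the *Gfra1* gene. In the cryptorchid group (7 libraries) the left testis had been moved surgically out of the scrotum, and in the control group (5 libraries) the right testis of operated mice had stayed in it. Testes were taken 10 days after surgery, and EGFP+/KIT- cells (undifferentiated spermatogonia lacking the differentiation receptor KIT on their surface) were sorted and made into Smart-seq2 libraries from RNA of about 200 cells each. The sources used here do not say which libraries came from the same mouse, so *P*-values measure the spread between these libraries. Control testes were digested at 32°C and cryptorchid testes at 37°C, so the digestion temperature and the condition cannot be told apart.

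Between 4511730 and 24345368 reads fell on genes in control libraries and between 3306771 and 20027902 in cryptorchid libraries. The variance between pairs of replicates was 13.5 to 264 times that of sampling noise alone, so each library was counted as 1 sample. Replicates 1 to 3 of both groups differed technically from replicates 4 and above: 53.2% to 60.8% of their genes with 1 to 20 reads had an even read number, against 48.2% to 50.5%. Depth differed too, with 6800360 to 24345368 reads on genes in replicates 1 to 3 and 3306771 to 5481947 in replicates 4 and above. Set and depth thus cannot be told apart. These 2 technical sets were found in the values, and results within each are given where they matter. Of the markers of undifferentiated spermatogonia, *Gfra1* (GDNF receptor) stood at 7.88 ± 0.884 log2 RPM in control (SD, n = 5) and 8.40 ± 0.704 in cryptorchid (SD, n = 7) and *Zbtb16* (PLZF) at 8.33 ± 0.686 and 8.54 ± 0.568. *Id4*, *Nanos2*, *Eomes* and *Lhx1* of the same list had means between 2.47 and 3.69 log2 RPM, and *Id4* had as few as 8 reads in a control library. *Tspan8* of this list rose by 1.25 on the log2 scale (limma unadjusted *P*=0.00450, adjusted *P*=0.301). It was the only 1 of the 10 markers under 0.05, a share of 10.0% against 9.48% of all genes tested. Of the 10 means, 7 were higher in cryptorchid and 3 lower. The 10 undifferentiated markers summed to 1040 to 1557 RPM in control and 1222 to 2029 RPM in cryptorchid libraries.

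No member of the family rose or fell in cryptorchid spermatogonia by the test across all genes. In limma, 0 of 10 members had an unadjusted *P*-value under 0.05, against 9.48% of all genes tested. None was among the genes called at 2-fold and that *P*-value, which made up 3.56% of all genes in the higher direction and 2.36% in the lower one, and none was among the 0.0118% called after Benjamini-Hochberg adjustment over all genes. The exact two-sided rank sum test also called 0 of 10, against 9.63% of all genes, and the groups overlapped in every member, whereas they did not overlap in 0.839% of all genes. Mean log2 RPM was higher in cryptorchid spermatogonia for 5 members and lower for 5. The median log2 difference (cryptorchid minus control) was -0.03 over the 10 members and 0.10 over all genes tested. It was 0.06 over the 4 anti-apoptotic members, of which 3 had a higher mean, and -0.17 over the 6 pro-apoptotic members, of which 4 had a lower mean. As these are bulk libraries, fewer cells with a transcript and less of it per cell cannot be told apart.

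**Figure D1:**
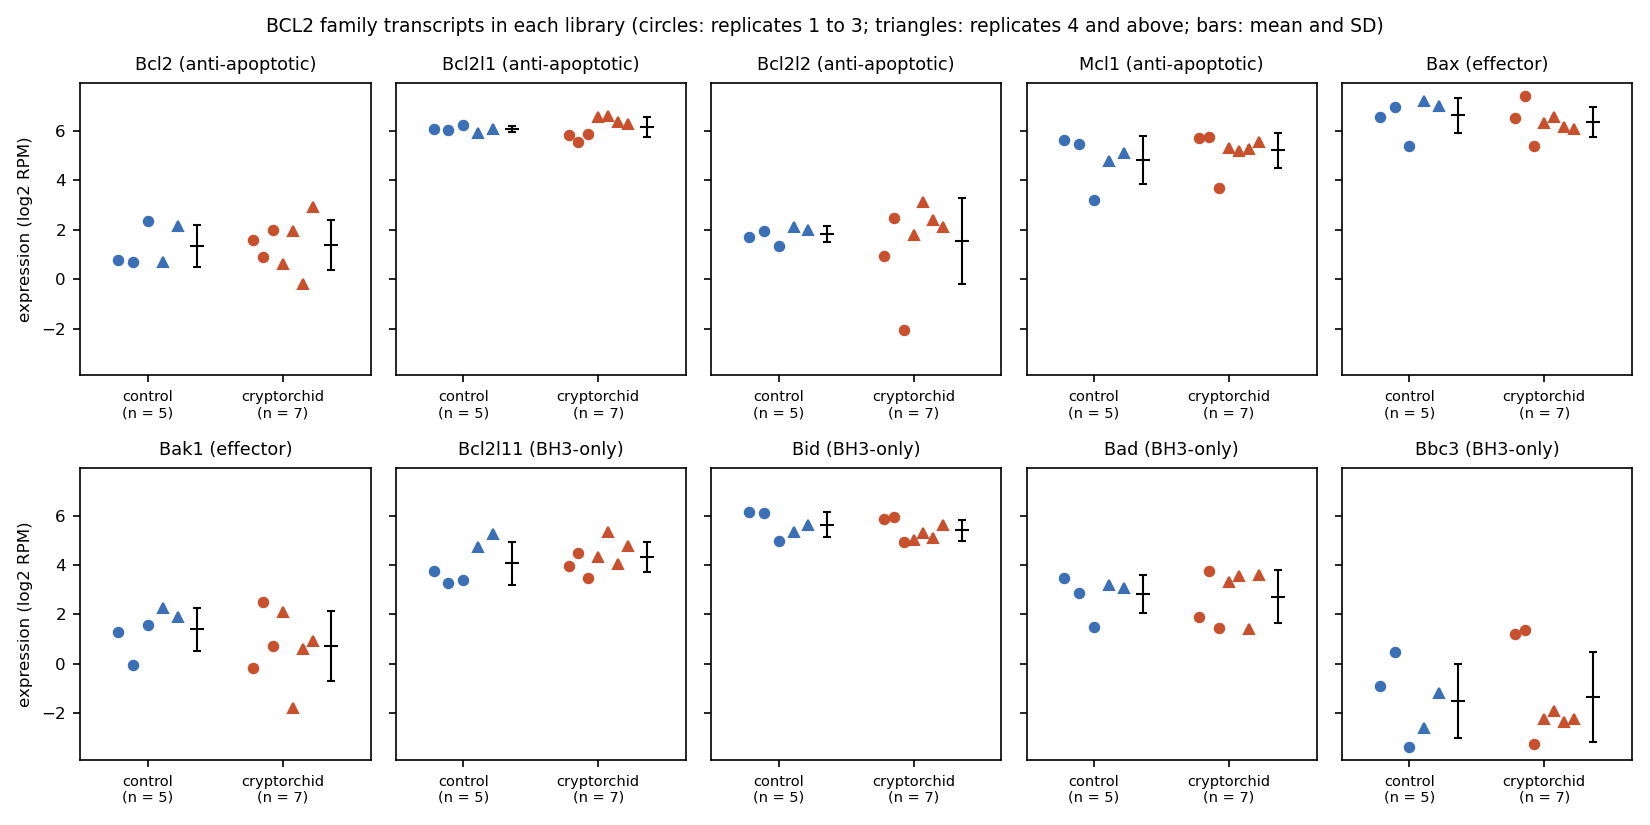
Expression (log2 RPM) of the 10 BCL2 family members in each of the 5 control and 7 cryptorchid libraries, with circles for replicates 1 to 3, triangles for replicates 4 and above, and bars for mean and SD. The groups overlap in every panel, and replicate 3 of both groups is the lowest of its group for *Bcl2l2*, *Mcl1*, *Bax* and *Bid*. Replicate 3 is also plotted lowest for *Bbc3*, but this order rests on the values listed for libraries without reads. *Bbc3* had 1 read in control replicate 3 and 0 in control replicate 4, and 0 in cryptorchid replicates 3, 5 and 6.

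Among the anti-apoptotic members, *Bcl2l1* (chromosome 2, 152780668 to 152831728, minus strand, GRCm38) was the most even one in the control group. It stood at 6.08, 6.02, 6.25, 5.91 and 6.09 log2 RPM in control replicates 1 to 5. In cryptorchid replicates 1 to 7 it stood at 5.82, 5.56, 5.87, 6.56, 6.59, 6.34 and 6.28 log2 RPM, so that these libraries lay on both sides of the control values. The means were 6.07 ± 0.126 in control (SD, n = 5) and 6.15 ± 0.398 in cryptorchid (SD, n = 7), a log2 difference of 0.07 (SE 0.245, 95% interval -0.44 to 0.59, limma adjusted *P*=0.944). The interval lay within 2-fold both ways. The split of the cryptorchid values followed the technical sets. In replicates 1 to 3 the cryptorchid libraries (5.56 to 5.87) were all below the control libraries (6.02 to 6.25), with a log2 difference of -0.37 (limma unadjusted *P*=0.403 within the set), while in replicates 4 and above they (6.28 to 6.59) were all above the control libraries (5.91 to 6.09), with a log2 difference of 0.44 (limma unadjusted *P*=0.0528 within the set). The share of all genes whose groups separated within a set was not counted, so these separations were not weighed against it. The difference between the sets had an unadjusted limma interaction *P*-value of 0.0796 and an adjusted one of 0.9996. *Bcl2l1* encodes both anti-apoptotic BCL-xL and a shorter pro-apoptotic splice form, and the gene-level values do not separate them.

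*Mcl1* (chromosome 3, 95658788 to 95663176, plus strand), whose short-lived protein sequesters BAK1 and BIM, had the smallest limma *P*-value of the 10 members. Its level was 5.62, 5.48, 3.19, 4.77 and 5.09 log2 RPM in control replicates 1 to 5. It was 5.71, 5.76, 3.70, 5.32, 5.19, 5.25 and 5.56 log2 RPM in cryptorchid replicates 1 to 7. Replicate 3 was the lowest library in both groups, and 6 of the 7 cryptorchid libraries lay between 5.19 and 5.76. The means of 4.83 ± 0.977 (SD, n = 5) and 5.21 ± 0.704 (SD, n = 7) differed by 0.38 on the log2 scale (SE 0.431, 95% interval -0.52 to 1.29, limma unadjusted *P*=0.387, adjusted *P*=0.816). The sign was the same in both technical sets, at 0.29 in replicates 1 to 3 and 0.40 in replicates 4 and above. Without control replicate 3 the log2 difference was -0.03, and without cryptorchid replicate 3 it was 0.63. The fitted difference over all libraries thus depended strongly on the low replicate 3 libraries. With the replicate number as a block it was 0.31 (limma unadjusted *P*=0.173).

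*Bcl2* (chromosome 1, 106538178 to 106714274, minus strand), the founding member of the family, was rare in these cells. Its level was 0.79, 0.71, 2.35, 0.71 and 2.15 log2 RPM in control replicates 1 to 5, from 9 to 52 reads. Across cryptorchid replicates 1 to 7 it was 1.57, 0.91, 1.97, 0.60, 1.93, -0.19 and 2.91 log2 RPM, from 4 to 66 reads. High and low libraries occurred in both groups, and the log2 difference of 0.04 (SE 0.684, 95% interval -1.39 to 1.48, limma adjusted *P*=0.990) left changes of over 2-fold either way undetectable at this depth and spread. *Bcl2l2* (chromosome 14, 54883377 to 54888234, plus strand) encodes BCL-w, which is known for its need in male germ cell survival. It stood at 1.70, 1.95, 1.35, 2.13 and 2.0 log2 RPM in control replicates 1 to 5. For the cryptorchid replicates, from 1 to 7, it stood at 0.95, 2.47, -2.07, 1.79, 3.14, 2.40 and 2.1 log2 RPM. Cryptorchid replicate 3, with 2 reads, was far below all others, and the cryptorchid libraries ranged both above and below the control ones. The log2 difference was -0.28 (SE 0.787, limma adjusted *P*=0.932), and without that library it was 0.32. Exons of *Bcl2l2* overlap those of *Gm20521* on the same strand, so reads of the pair could be shared, and *Bcl2l2* is uncertain. *Bcl2* overlaps an antisense gene, *D630008O14Rik*, and whether counting was stranded is not given in the sources used here.

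The effector *Bax* (chromosome 7, 45461697 to 45466898, minus strand) had the highest level per length of the 10 members, and its mean was lower in the cryptorchid group by less than the spread. It stood at 6.55, 6.95, 5.41, 7.20 and 7.01 log2 RPM in control replicates 1 to 5. In cryptorchid replicates 1 to 7 it stood at 6.50, 7.40, 5.39, 6.33, 6.57, 6.16 and 6.09 log2 RPM. The lowest library was replicate 3 in each group, and the highest of all was cryptorchid replicate 2. The means of 6.62 ± 0.720 (SD, n = 5) and 6.35 ± 0.606 (SD, n = 7) differed by -0.28 on the log2 scale (SE 0.348, 95% interval -1.01 to 0.46, limma unadjusted *P*=0.439, adjusted *P*=0.841). It was -0.12 without cryptorchid replicate 3, -0.13 without control replicate 4, -0.18 without control replicate 5, -0.45 without cryptorchid replicate 2 and -0.58 without control replicate 3. In replicates 4 and above, *Bax* was lower in the 4 cryptorchid libraries (6.09 to 6.57) than in both control libraries (7.01 to 7.20), with a log2 difference of -0.82 (SE 0.204, limma unadjusted *P*=0.00282, adjusted *P*=0.0961). The groups also separated there for *Mcl1* (cryptorchid 5.19 to 5.56, control 4.77 to 5.09) and *Bcl2l1* (6.28 to 6.59 and 5.91 to 6.09). The share of all genes that separated there was not counted. *Bax* was the only member with an unadjusted *P*-value under 0.05 there, against 17.3% of all genes tested in these 6 libraries. In replicates 1 to 3 the log2 difference was 0.13 with overlapping groups (limma unadjusted *P*=0.834), and none of the 10 members had a *P*-value under 0.05, against 3.74% of all genes. The difference between the sets had an unadjusted interaction *P*-value of 0.185, and no member was past 0.05 in that test, against 1.59% of all genes. When limma weighted the libraries by their quality, *Bax* had a log2 difference of -0.59 (unadjusted *P*=0.0258) and was again the only member under 0.05, against 20.0% of all genes. *Gm45808*, which shares exons with *Bax* on the same strand, stood at 4.12 to 5.69 log2 RPM in control and 4.04 to 5.99 in cryptorchid libraries.

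*Bak1* (chromosome 17, 27019810 to 27029009, minus strand), the other effector, was measured from few reads and had the largest fitted difference of the 10 members. It stood at 1.30, -0.04, 1.56, 2.24 and 1.91 log2 RPM in control replicates 1 to 5. Across cryptorchid replicates 1 to 7 it stood at -0.16, 2.52, 0.74, 2.11, -1.77, 0.62 and 0.95 log2 RPM, the lowest of these resting on 1 read. Cryptorchid libraries were spread more widely than control libraries and held both the highest and the lowest value. The log2 difference of -0.68 (SE 0.789, 95% interval -2.34 to 0.98) did not pass the test (limma adjusted *P*=0.822). It was -0.26 without cryptorchid replicate 5 and -1.04 without control replicate 2. It was 0.09 in replicates 1 to 3 and -1.60 in replicates 4 and above (interaction unadjusted *P*=0.307). *Ggnbp1*, which overlaps *Bak1* on the opposite strand, stood far above it at 4.69 to 6.47 log2 RPM in control and 4.04 to 6.32 in cryptorchid libraries, and with no strand known for the counting the reads of the pair cannot be told apart.

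Of the BH3-only genes, *Bid* was the most evenly expressed and was lower in mean under every alternative tried. *Bid* (chromosome 6, 120891930 to 120916853, minus strand) encodes a protein that links death receptors to mitochondria once cleaved by caspase-8. It stood at 6.13, 6.12, 4.97, 5.34 and 5.60 log2 RPM in control replicates 1 to 5. For the cryptorchid replicates, from 1 to 7, it stood at 5.88, 5.94, 4.93, 5.02, 5.32, 5.10 and 5.63 log2 RPM. The groups covered nearly the same range, and replicate 3 was again the lowest in each. The means of 5.63 ± 0.505 (SD, n = 5) and 5.40 ± 0.416 (SD, n = 7) differed by -0.23 on the log2 scale (SE 0.294, 95% interval -0.85 to 0.39, limma adjusted *P*=0.843), an interval within 2-fold both ways.

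*Bcl2l11* (chromosome 2, 128126038 to 128162547, plus strand) encodes BIM, a BH3-only protein that binds all the main inhibitors and is induced by FOXO3 when growth factors are withdrawn. It stood at 3.76, 3.26, 3.38, 4.72 and 5.25 log2 RPM in control replicates 1 to 5. In cryptorchid replicates 1 to 7 it stood at 3.95, 4.47, 3.47, 4.33, 5.34, 4.04 and 4.78 log2 RPM. The 3 lowest control libraries were replicates 1 to 3 and the 2 highest were replicates 4 and 5, so the control spread followed the technical sets. The log2 difference of 0.27 (SE 0.425, 95% interval -0.63 to 1.16, limma adjusted *P*=0.880) was 0.50 in replicates 1 to 3 and -0.37 in replicates 4 and above (interaction unadjusted *P*=0.235). BIM isoforms of different potency arise by splicing, and these are not separated here.

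*Bad* (chromosome 19, 6941861 to 6951899, plus strand), whose protein binds BCL-xL unless phosphorylated by survival kinases such as AKT, varied widely in both groups. It stood at 3.49, 2.87, 1.51, 3.18 and 3.07 log2 RPM in control replicates 1 to 5. Across cryptorchid replicates 1 to 7 it stood at 1.91, 3.75, 1.45, 3.31, 3.55, 1.40 and 3.61 log2 RPM, with 3 libraries below 2 and 4 above 3. The log2 difference was -0.11 (SE 0.590, 95% interval -1.35 to 1.13, limma adjusted *P*=0.965). *Bad* overlaps *Gpr137* on the opposite strand (1.79 to 3.88 log2 RPM in control and 1.55 to 3.11 in cryptorchid libraries), so its values are uncertain as well.

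*Bbc3* (chromosome 7, 16308393 to 16318205, plus strand) encodes PUMA, a BH3-only protein and a classical target of p53, and was close to the detection limit. Reads numbered 13, 40, 1, 0 and 2 in control replicates 1 to 5. For the cryptorchid replicates, from 1 to 7, they numbered 51, 29, 0, 1, 0, 0 and 1. A level of 3 reads or fewer was found in 3 control and 5 cryptorchid libraries, and the 4 libraries with over 3 reads were replicates 1 and 2 of both groups. A gene without reads is listed at the value of 0.9 reads, and the log2 RPM values ran from -3.35 to 0.48 in control and from -3.22 to 1.38 in cryptorchid libraries. The fitted log2 difference of 0.18 (SE 1.04, 95% interval -2.02 to 2.37, limma adjusted *P*=0.969) depended on these listed values. A difference in *Bbc3* was not detectable at this depth.

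The intervals of 8 members reached past a 2-fold change in at least 1 direction, so for them a 2-fold change lay within the error. Only *Mcl1*, *Bid* and *Bad* had the same sign of difference in both technical sets, and the other 7 members had opposite signs. Apart from *Bax* in replicates 4 and above, no difference within a set was past 0.05, and all adjusted interaction *P*-values were 0.9996.

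**Figure D2:**
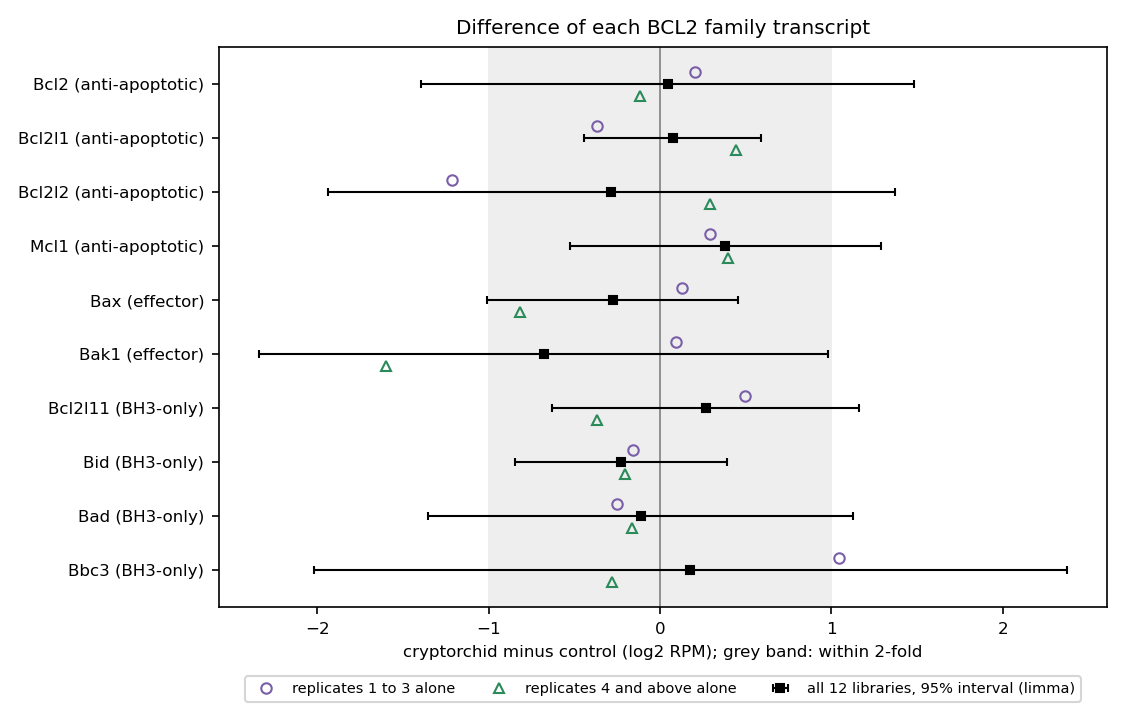
Differences (cryptorchid minus control, log2 RPM) of the 10 members over all 12 libraries (squares with 95% intervals from limma) and within replicates 1 to 3 (circles) or replicates 4 and above (triangles). All 10 intervals cross 0, those of *Bcl2l1* and *Bid* stay within the 2-fold band, and the difference of *Bax* is 0.13 in one set and -0.82 in the other.

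To compare members with each other, RPM was divided by the length in kilobases of the union of their coding transcripts' exons. *Bax* led with 80.2 ± 30.6 RPM per kilobase in control (SD, n = 5) and 65.8 ± 29.7 in cryptorchid (SD, n = 7). *Bid* followed at 21.3 ± 7.12 and 17.9 ± 5.23, *Bcl2l1* at 14.7 ± 1.29 and 15.9 ± 4.21, and *Mcl1* at 9.62 ± 4.63 and 11.7 ± 4.05 RPM per kilobase. These 4 transcripts stood apart from the rest, as *Mcl1* was above the next member in 12 of 12 libraries. *Bad* stood at 3.25 ± 1.30 RPM per kilobase in control and 3.37 ± 2.01 in cryptorchid libraries, and *Bcl2l11* at 2.84 ± 1.79 and 3.17 ± 1.41. *Bak1* stood at 1.25 ± 0.591 and 0.980 ± 0.820, and *Bcl2l2* at 0.842 ± 0.167 and 0.986 ± 0.643. *Bbc3* at 0.261 ± 0.257 and 0.417 ± 0.546 and *Bcl2* at 0.317 ± 0.187 and 0.350 ± 0.242 were the lowest.

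Within the libraries, *Bax* was above *Bid* in 12 of 12, *Bcl2l1* above *Mcl1* in 10 of 12, *Bcl2l11* above *Bak1* in 12 of 12 and *Bcl2l2* above *Bbc3* in 11 of 12. Neighbours whose order was not kept were *Bid* and *Bcl2l1* (*Bid* higher in 7 of 12 libraries), *Bad* and *Bcl2l11* (*Bad* higher in 5 of 12), *Bak1* and *Bcl2l2* (*Bak1* higher in 7 of 12) and *Bbc3* and *Bcl2* (*Bbc3* higher in 5 of 12). Per length, *Bax* stood above *Bak1* among the effectors, and *Bcl2l1* and *Mcl1* stood above *Bcl2* and *Bcl2l2* among the inhibitors. *Bax* made up 72.2% ± 6.61 of the summed pro-apoptotic level per kilobase in control (SD, n = 5) and 70.8% ± 4.99 in cryptorchid spermatogonia (SD, n = 7). *Bcl2l1* and *Mcl1* together made up 95.3% ± 1.12 and 95.5% ± 1.73 of the summed anti-apoptotic level. The part of *Mcl1* in it was lowest in replicate 3 of each group, at 13.0% in control and 22.2% in cryptorchid.

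**Figure D3:**
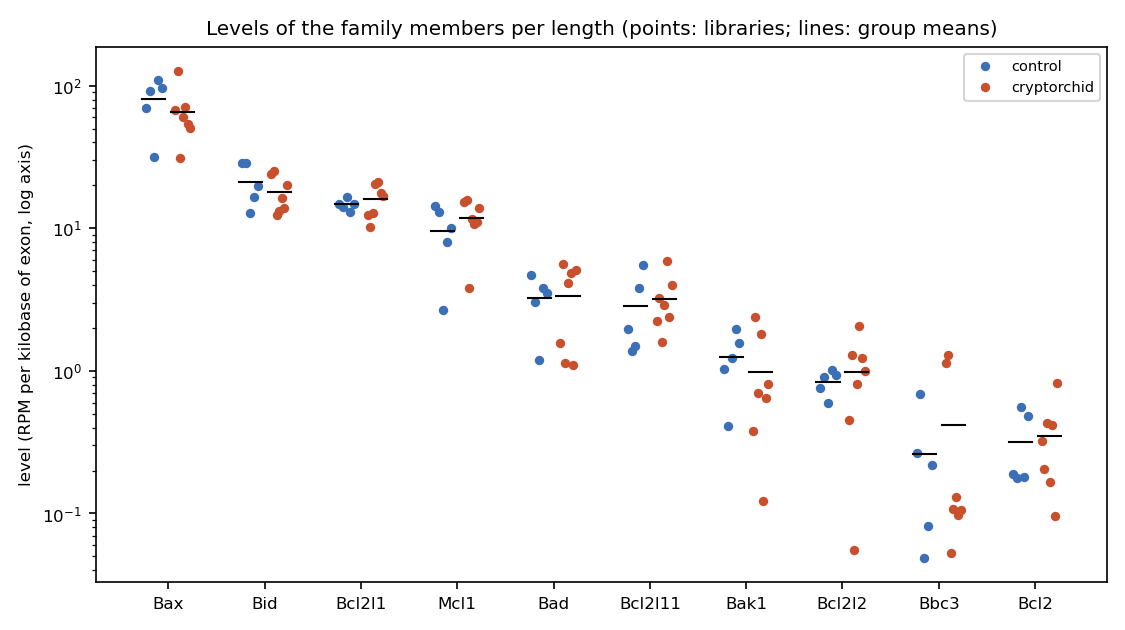
Levels of the 10 members in RPM per kilobase of exon (log axis), with points for libraries and lines for group means, in the order of their mean over 12 libraries. *Bax* is highest in both groups, *Bid*, *Bcl2l1* and *Mcl1* follow, and *Bbc3* and *Bcl2* are lowest.

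Pro-apoptotic were then set against anti-apoptotic members within each library, as a description with no test. The balance was the mean log2 RPM of the 6 pro-apoptotic members minus that of the 4 anti-apoptotic ones. Differences in length between genes shift it by the same amount in every library. It was -0.16, -0.26, -1.04, -0.03 and -0.22 in control replicates 1 to 5. In cryptorchid replicates 1 to 7 it was -0.30, 0.57, -0.24, -0.42, -1.37, -0.95 and -1.07. The means were -0.34 ± 0.399 in control (SD, n = 5) and -0.54 ± 0.649 in cryptorchid (SD, n = 7), and their difference of -0.20 was smaller than either SD. The balance was higher in cryptorchid libraries by 0.50 within replicates 1 to 3 and differed by -0.83 within replicates 4 and above. Leaving out *Bbc3*, which had few reads, gave a difference of -0.26. The log2 ratio of the summed levels per kilobase, which *Bax* dominates, was 2.02 ± 0.517 in control (SD, n = 5) and 1.60 ± 0.461 in cryptorchid (SD, n = 7). Its mean went from 1.74 in control to 1.94 in cryptorchid within replicates 1 to 3 and from 2.44 to 1.35 within replicates 4 and above, so its direction turned between the sets.

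The effector *Bax* was set against 3 of the 4 anti-apoptotic members one at a time, as log2 RPM of *Bax* minus that of the inhibitor. *Bcl2l2* was left out of these ratios. Against *Bcl2* the difference was 5.28 ± 1.39 in control (SD, n = 5) and 4.96 ± 1.32 in cryptorchid (SD, n = 7), and both groups spanned values from under 4 to over 6. Against *Bcl2l1* it was 0.47, 0.93, -0.85, 1.29 and 0.92 in control replicates 1 to 5. Across cryptorchid replicates 1 to 7 it was 0.68, 1.84, -0.49, -0.23, -0.02, -0.18 and -0.19. It was below 0 in 5 of 7 cryptorchid libraries and in 1 of 5 control libraries, and the means of 0.55 ± 0.835 and 0.20 ± 0.809 differed by -0.35. All 4 cryptorchid libraries of replicates 4 and above were between -0.23 and -0.02, whereas both control libraries of that set were at 0.92 or more.

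Against *Mcl1* the difference was 0.93, 1.47, 2.22, 2.43 and 1.92 in control replicates 1 to 5. It was 0.79, 1.64, 1.69, 1.01, 1.37, 0.91 and 0.53 in cryptorchid replicates 1 to 7. The means were 1.79 ± 0.60 in control (SD, n = 5) and 1.14 ± 0.442 in cryptorchid (SD, n = 7), a difference of -0.66, with 3 control libraries above all cryptorchid ones and 3 cryptorchid libraries below all control ones. This was the only one of the 3 ratios whose group means lay further apart than either SD. The difference was -0.17 within replicates 1 to 3 and -1.22 within replicates 4 and above.

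**Figure D4:**
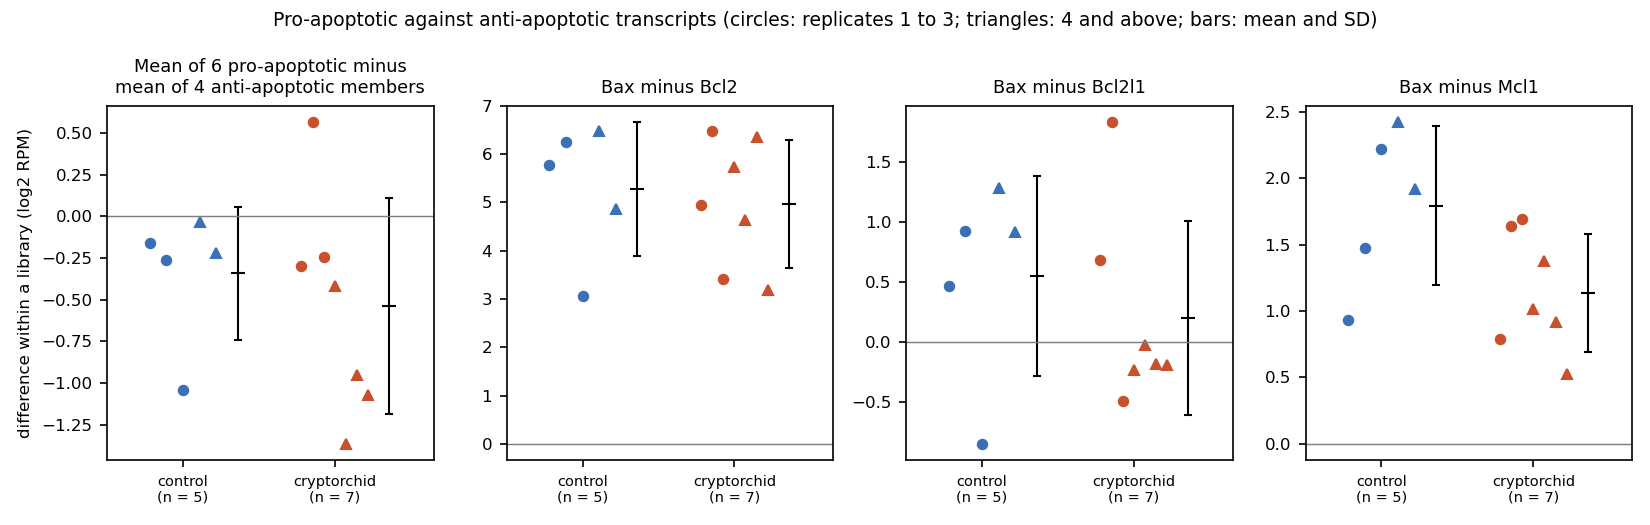
Differences within each library (log2 RPM) between pro-apoptotic and anti-apoptotic members as group means and for *Bax* against *Bcl2*, *Bcl2l1* and *Mcl1*, with circles for replicates 1 to 3, triangles for replicates 4 and above, and bars for mean and SD. The groups overlap in all 4 panels, and the group means of *Bax* minus *Mcl1* are 1.79 in control and 1.14 in cryptorchid.

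Of 15 further family members, 11 were tested, and 1 fell by the unadjusted test, a share of 9.09% against 9.48% of all genes. Their median log2 difference was -0.24, with 8 means lower and 3 higher, against 0.10 for all genes. *Bcl2l14* (BCL-G), a member whose role in cell death is less settled, stood at 6.67, 5.19, 6.09, 7.51 and 8.14 log2 RPM in control replicates 1 to 5. For the cryptorchid replicates, from 1 to 7, it stood at 3.65, 3.18, 3.70, 5.59, 4.46, 6.26 and 5.32 log2 RPM, and 4 of these were below the lowest control library. It fell by 2.13 on the log2 scale (SE 0.552, limma unadjusted *P*=0.00120, exact rank sum *P*=0.0303), and the call was lost after adjustment over all genes (adjusted *P*=0.215). With a term for the technical set, the adjusted *P*-value was 0.00428, and 0.272% of all genes were then called after adjustment. With array weights it was 0.0198, and 2.81% of all genes were called. The log2 difference was -2.47 in replicates 1 to 3 and -2.42 in replicates 4 and above. The unadjusted test was passed in all 25 alternatives, at the weakest without control replicate 5 (unadjusted *P*=0.00582).

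Markers of spermatids also moved in this direction. A sort for EGFP is meant to leave these cells out, but their transcripts were present in the sorted material. The median sum of their markers was 1459 RPM in control and 371 RPM in cryptorchid libraries, against 1431 and 1443 RPM for markers of undifferentiated spermatogonia. All 8 spermatid markers had lower means in the cryptorchid group, 3 of them with *P*-values under 0.05. They summed to 547 to 3163 RPM in control and 21.2 to 2101 RPM in cryptorchid libraries. *Prm1* (protamine 1) fell from 7.61 ± 1.14 log2 RPM in control (SD, n = 5) to 5.20 ± 2.09 in cryptorchid (SD, n = 7; limma unadjusted *P*=0.00790). Their part in the values of *Bcl2l14* was not tested. The second smallest *P*-value of the list was that of *Bnip3l* (NIX, a mitophagy receptor), with a log2 difference of 0.61 (unadjusted *P*=0.0893). *Bnip3l* was past 0.05 with array weights (0.58, unadjusted *P*=0.0410), in replicates 4 and above alone (0.47, unadjusted *P*=0.0167) and without control replicate 5 (unadjusted *P*=0.0360) or cryptorchid replicate 3 (unadjusted *P*=0.0198), and the first 2 of these calls were lost after adjustment (adjusted *P*=0.228 and 0.183). *Bcl2a1a*, *Bcl2a1b*, *Bcl2a1d* and *Bcl2l10* were below the expression limit and were not tested. The first 3 of these are near-identical copies whose reads the counting could split.

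Downstream of the family, 0 of 13 genes of mitochondrial release and the apoptosome had a *P*-value under 0.05, against 9.48% of all genes, and their median log2 difference was -0.09, against 0.10. The 2 smallest *P*-values belonged to *Xiap*, an inhibitor of caspases (log2 difference 0.74, unadjusted *P*=0.0548, adjusted *P*=0.537), and *Diablo*, which encodes the antagonist of XIAP that mitochondria release (log2 difference 0.46, unadjusted *P*=0.170). Cryptorchid replicate 3 was far from its group in both, at 7.52 log2 RPM for *Xiap* and 6.79 for *Diablo*. Without control replicate 3, the log2 difference of *Diablo* was 0.17. *Xiap* was past 0.05 with a set term (0.83, unadjusted *P*=0.0235, against 11.4% of all genes), with array weights (0.97, unadjusted *P*=0.00134) and in replicates 4 and above alone (1.14, unadjusted *P*=0.00116). It was also past 0.05 without control replicate 3, cryptorchid replicate 2 or cryptorchid replicate 6 (unadjusted *P*=0.0150, 0.0297 and 0.0485), and its log2 difference was 0.49 without cryptorchid replicate 3.

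Among 14 regulators of the family, 1 rose by the unadjusted test, a share of 7.14% against 9.48% of all genes, and the median log2 difference was 0.39 with 12 means higher, against 0.10 for all genes. *Trp73*, which encodes the p53 relative p73, rose by a log2 difference of 2.0 (SE 0.872, limma unadjusted *P*=0.0338, exact rank sum *P*=0.0177, adjusted *P*=0.481), from -1.58 ± 1.01 log2 RPM in control (SD, n = 5) to 0.43 ± 1.41 in cryptorchid (SD, n = 7). Control libraries held 0 to 10 of its reads and cryptorchid ones 2 to 87, and it was not past 0.05 when libraries were weighted by quality (unadjusted *P*=0.0758), nor without any one of control replicates 1, 3 and 5 or cryptorchid replicates 1, 3 and 6 (unadjusted *P*-values of 0.0559, 0.0724, 0.0741, 0.0673, 0.0677 and 0.0695). *Mapk9*, which encodes the kinase JNK2, had the next smallest *P*-value (log2 difference 0.55, unadjusted *P*=0.0960). Its log2 difference was 0.29 without control replicate 2. It was past 0.05 without control replicate 3 or cryptorchid replicate 2 (unadjusted *P*=0.0350 and 0.0230), with array weights (unadjusted *P*=0.0209) and in replicates 4 and above alone (unadjusted *P*=0.0168).

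**Figure D5:**
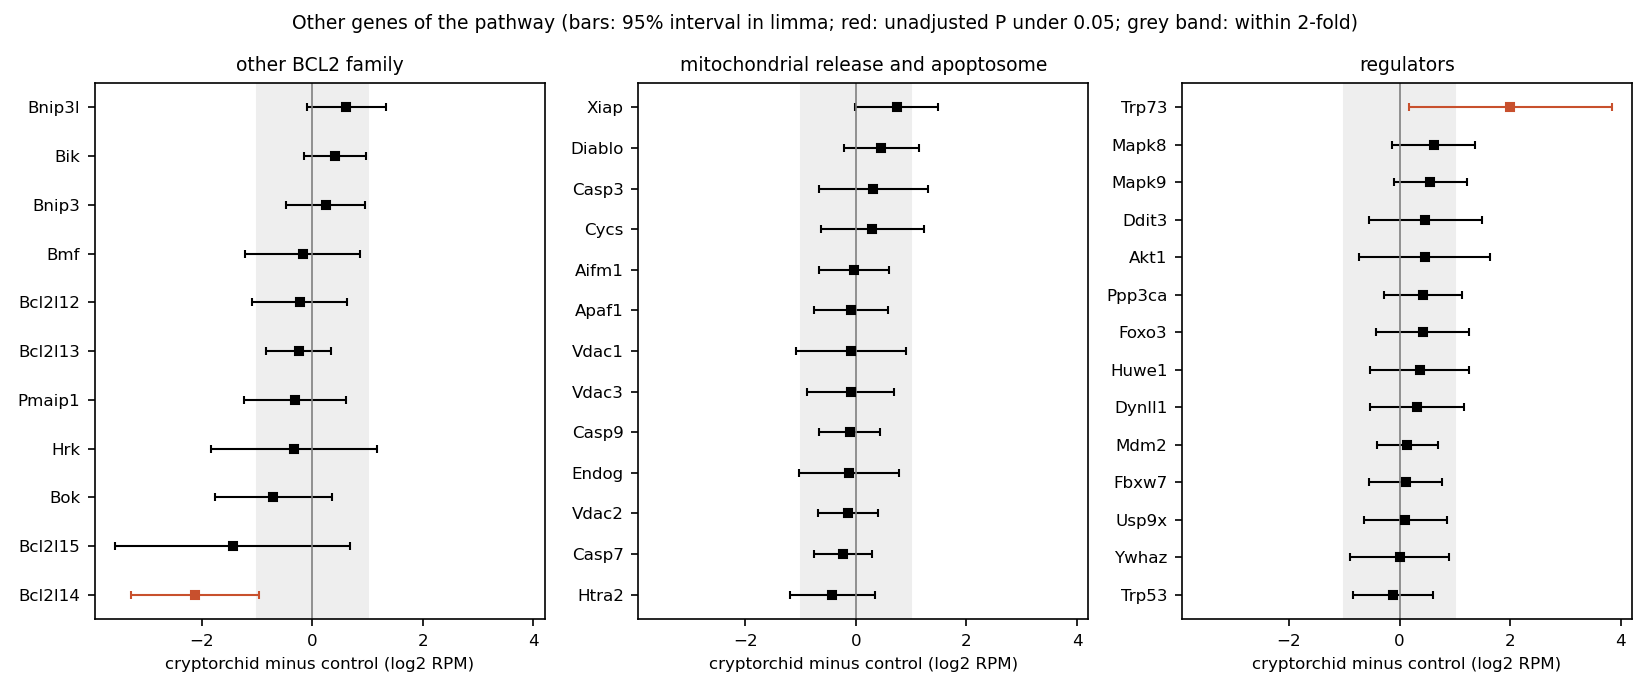
Differences (cryptorchid minus control, log2 RPM) with 95% intervals from limma for the tested genes of 3 lists: other family members, mitochondrial release and apoptosome, and regulators. *Bcl2l14* at -2.13 and *Trp73* at 2.0 are the only genes whose interval does not cross 0.

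Apart from those of spermatids, markers of other cells summed to less than those of undifferentiated spermatogonia in both groups, at 169 to 404 RPM for differentiating spermatogonia, 267 to 689 for spermatocytes and 41.1 to 247 for Sertoli cells. *Kit*, which encodes the receptor used to exclude differentiating cells, stood at 4.49 ± 0.627 log2 RPM in control (SD, n = 5) and 4.94 ± 0.567 in cryptorchid (SD, n = 7), while *Stra8* of the same list, a retinoic acid target, rose by 1.09 on the log2 scale (limma unadjusted *P*=0.00371, adjusted *P*=0.273). *Stra8* was the only 1 of the 6 markers of the list under 0.05, a share of 16.7% against 9.48% of all genes. Means were lower for 4 of the 6. *Sycp3* (meiotic chromosome axis) stood at 6.45 ± 1.0 and 7.09 ± 0.731. *Sox9* (Sertoli cells) stood at 0.92 ± 1.0 and 1.07 ± 0.940, *Cd68* (macrophages) at 1.35 ± 1.12 and 0.98 ± 1.51, and *Pecam1* (endothelium) at 2.35 ± 0.986 and 2.74 ± 1.11. These genes do not stand for their whole lists. *Clu*, another Sertoli marker, was far above *Sox9* at 6.01 ± 1.33 and 6.0 ± 1.29. Of 5 macrophage markers tested, 3 means were higher in cryptorchid and 2, with *Cd68*, were lower. The macrophage list summed to 2.25 to 22.1 RPM in control and 7.73 to 27.1 RPM in cryptorchid libraries. *Cyp11a1* (Leydig cells), *Acta2* (peritubular myoid cells) and *Ptprc* (leukocytes) had no reads in 3, 3 and 2 control libraries and in 3, 3 and 3 cryptorchid libraries. Other markers of these lists did have reads, as *Star* (Leydig cells) stood at 3.33 ± 0.481 and 3.88 ± 1.24 log2 RPM with 27 reads or more in every library, and *Des* (myoid cells) rose by 2.55 on the log2 scale (limma unadjusted *P*=0.0120, adjusted *P*=0.386), with libraries at 0 reads in both groups. *Id4*, *Nanos2*, *Eomes*, *Lhx1*, *Tspan8*, *Stra8*, *Clu*, *Star* and *Des* were chosen for mention after their values were seen. Leydig markers summed to 6.18 to 47.8 RPM and myoid markers to 0.714 to 16.5 RPM over both groups. Of the endothelial markers, 2 of 4 tested had *P*-values under 0.05, against 9.48% of all genes, and the list summed to 2.36 to 14.4 RPM in control and 7.69 to 28.3 RPM in cryptorchid libraries.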

How the data were processed

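The authors trimmed paired-end reads (Trim Galore 0.6.6), checked them (FastQC 0.11.8), aligned them to mm10 (HISAT2 2.1.0), counted those on protein-coding genes (SeqMonk) and deposited the values of each library as log2 RPM. Their own comparisons used a count model, which does not apply to log2 values. Here limma 3.58.1 in R 4.3.3 (lmFit, eBayes with trend, two-sided) was fitted over 16932 genes, those with a mean RPM above -1 on the log2 scale. *P*-values were adjusted (Benjamini-Hochberg) over all of them, and another call needed 2-fold and an unadjusted *P*-value under 0.05.

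Read numbers were recovered from the RPM steps by setting the lowest value of each library to 0.9 reads. Leaving that value aside, 100% of values under 1000 reads were whole within 0.01. No molecular identifiers were used, so read numbers cover counting error only. The rank sum test enumerated the 792 ways of placing 5 of the libraries in one group (smallest *P*-value 0.00253). Software was Python 3.11.15, numpy 2.4.6, pandas 2.3.3, scipy 1.17.1 and matplotlib 3.10.9. Positions and exon lengths were those of GENCODE on GRCm38, which is the build of mm10. The limma step was tested on simulated data.

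The members and lists were chosen with earlier results of these data known. Named genes were all members, and, from the lists of other family members, mitochondrial release and apoptosome, and regulators, genes with an unadjusted *P*-value of 0.05 or less, the 2 smallest *P*-values and genes not tested. Also named were 11 defining markers and the 3 genes closest to the member with the smallest *P*-value. Alternatives were other normalizations, pseudocounts, filters, array weights, voom, a set term, each set alone, the replicate block and leaving out each library. The set interaction, the balance without *Bbc3* and the summed-level ratio were added after seeing the data.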

Additional observations from a re-analysis of the deposited data

Results flagged for a closer look

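Sets of 5 control or 7 cryptorchid values were checked for a library far from its group, and 6 of 40 sets had one. Chance gives about 1 in 20 for independent sets, but these sets shared the same libraries. Cryptorchid replicate 3 stood apart in 4 of the 6. It was at -2.07 log2 RPM for *Bcl2l2* (the other cryptorchid libraries 0.95 to 3.14), at 3.70 for *Mcl1* (5.19 to 5.76), at 7.52 for *Xiap* (5.34 to 6.10) and at 6.79 for *Diablo* (7.69 to 8.34). Cryptorchid replicate 2 was at 5.74 log2 RPM for *Mapk9*, with the others at 6.57 to 7.14. In the control group, replicate 3 had a pro-apoptotic minus anti-apoptotic balance of -1.04, with the others at -0.26 to -0.03. The difference between groups was not found to differ between the technical sets at an unadjusted *P*-value of 0.05 for any of the 16 genes checked.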

How the results depend on the processing

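*Bid* kept its direction in all 25 alternatives. Each of the other members turned direction in some alternatives. With the sets apart, replicates 1 to 3 gave a log2 difference of -0.37 for *Bcl2l1*, 0.13 for *Bax* and 0.094 for *Bak1*, and replicates 4 and above gave -0.12 for *Bcl2*, 0.29 for *Bcl2l2*, -0.37 for *Bcl2l11* and -0.28 for *Bbc3*. The balance of pro- and anti-apoptotic members moved to 0.50 in the former and -0.83 in the latter. With array weights *Bcl2* was at -0.023, *Bcl2l11* at -0.041 and *Bbc3* at -0.19. Median centring gave -0.023 for *Bcl2*, quantile normalization -0.048 for *Bcl2* and -0.011 for *Bbc3*, and voom on the recovered reads -0.011 for *Bbc3*. Leaving out each library gave -0.21 to 0.31 for *Bcl2*, -0.55 to 0.32 for *Bcl2l2*, -0.028 to 0.63 for *Mcl1*, -0.44 to 0.11 for *Bad* and -0.28 to 0.68 for *Bbc3*. The direction held with any library left out for *Bak1* (-1.04 to -0.26), *Bax* (-0.58 to -0.12), *Bid* (-0.39 to -0.10) and *Bcl2l11* (0.062 to 0.56). It also held for *Bcl2l1*, at 0.0010 to 0.17. The count of members under 0.05 was 1 (*Bax*) with array weights and 1 (*Bax*) in replicates 4 and above, and 0 otherwise. The causes were not tested. A stricter filter removed *Bcl2*, *Bcl2l2*, *Bak1* and *Bbc3*. Same-numbered libraries deviated together with r of 0.347, 0.363, 0.411, 0.250 and 0.0488 for replicates 1 to 5. The highest r with a library of another number was 0.179, 0.251, 0.0745, 0.239 and 0.274. The same number was thus the best match for replicates 1 to 4 but not for replicate 5. Whether equal numbers mark the same mouse is not known, and the main fit left pairing out. With the replicate number as a block 0 members passed, while genes under 0.05 went from 1606 to 3759. *Bcl2l14* was then past the adjusted test (adjusted *P*=0.00154, with 949 genes called), and *Bnip3l*, *Xiap*, *Diablo* and *Mapk9* were past the unadjusted one (unadjusted *P*=0.00395, 0.00379, 0.0142 and 0.00990). Calls at 2-fold split as 603 higher and 399 lower, as 457 and 542 after quantile normalization, and as 532 and 501 after centring. Few reads limit the precision of *Bcl2*, *Bak1*, *Bcl2l2* and *Bbc3*.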

Other observations

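Over the 12 libraries, the genes whose log2 RPM was closest to that of *Mcl1* were *Hsp90ab1* (a cytosolic HSP90 chaperone, Pearson's r 0.985, Spearman's rho 0.986), *Gnl3* (nucleostemin, r 0.976, rho 0.860) and *Anp32e* (a histone chaperone, r 0.968, rho 0.902). They were picked as the highest of all genes tested, and the libraries share their groups and technical sets. Without replicate 3 of both groups, the libraries with the lowest *Mcl1*, r was 0.883, 0.789 and 0.825 over 10 libraries.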
